A study of Mus musculus with 12 samples.

Results

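The complement genes described here are C1qa, C1qb, C1qc, C4b, C3, Cfp, Cfb and C3ar1, 8 of the 23420 genes counted in monocytic myeloid-derived suppressor cells (M-MDSCs) from mouse bone marrow. They were chosen by name from results of the comparison of aged with young mice in these same libraries, and by the relation of their levels among the aged mice, so their differences between the ages are given as a description without a test. RNA was sequenced from cells isolated as CD11b+Ly6G-Ly6Chi from male C57BL/6JNIA mice, with 1 library per mouse, from 6 aged mice of 24 months and 6 young mice of 6 months. Both ages were untreated mice of 1 strain without a transgene in the labels, so that age was the only labelled difference. Levels are given in CPM, meaning the fragments of a gene scaled to the total of its library and by its TMM factor. Of the 8 genes, 7 were among the 9742 genes that passed the filter on low counts, and C3ar1 did not pass.

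Complement is a cascade of plasma and membrane proteins that marks microbes, dying cells and immune complexes for removal. C1q, built from the products of C1qa, C1qb and C1qc, is the recognition unit of the classical pathway, and C4 is cleaved next to form part of the convertase that acts on C3. Factor B (Cfb) and properdin (Cfp) form and stabilise the convertase of the alternative pathway, C3 is the protein on which all routes converge, and the C3a receptor (C3ar1) senses a fragment released from C3. The liver makes most plasma complement, whereas C1q and properdin come largely from myeloid cells, and C1q transcripts are a usual feature of tissue macrophages.

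The chains of C1q are encoded side by side on chromosome 4, and in mm10 their exons spanned 18700 bases on the minus strand. C1qb lay at chr4:136880145-136886177, C1qc at chr4:136889802-136892914 and C1qa at chr4:136895916-136898844, each with 3 exons, and 3624 and 3001 bases separated the neighbours. C4b, at chr17:34728381-34743897 with 41 exons, and Cfb, at chr17:34856374-34862514, were 112476 bases apart on the minus strand of chromosome 17. C3 also lay on chromosome 17, at chr17:57203973-57228136 with 41 exons. Cfp was at chrX:20925535-20931524 with 9 exons, and C3ar1 was at chr6:122847140-122856157 with 2 exons. All the positions refer to whole gene spans as deposited.

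Promoter sequences of 250 bases before to 50 bases after the start site were matched in RefSeq (GRCm38.p6) for 5 of the 8 genes, namely C1qb, C1qc, C3, Cfp and C3ar1. Those of C1qb and C1qc are printed because these neighbouring genes moved together among the aged mice, and that of C3 because this gene, the most abundant of the group, had a log2 fold change of the opposite sign. They are given 5' to 3' on the strand of the gene, from chr4:136886151-136886450 for C1qb, chr4:136892865-136893164 for C1qc and chr17:57228087-57228386 for C3, all on the minus strand. Capitals mark a PU.1 core, searched as GAGGAA, or a MAF half-site, searched as TGCTGA, on either strand.

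C1qb: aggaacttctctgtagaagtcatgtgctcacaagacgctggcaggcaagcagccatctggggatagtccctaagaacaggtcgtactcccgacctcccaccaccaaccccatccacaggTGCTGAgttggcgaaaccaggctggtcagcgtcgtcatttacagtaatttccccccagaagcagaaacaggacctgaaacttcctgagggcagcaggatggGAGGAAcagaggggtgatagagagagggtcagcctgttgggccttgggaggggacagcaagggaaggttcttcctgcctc
C1qc: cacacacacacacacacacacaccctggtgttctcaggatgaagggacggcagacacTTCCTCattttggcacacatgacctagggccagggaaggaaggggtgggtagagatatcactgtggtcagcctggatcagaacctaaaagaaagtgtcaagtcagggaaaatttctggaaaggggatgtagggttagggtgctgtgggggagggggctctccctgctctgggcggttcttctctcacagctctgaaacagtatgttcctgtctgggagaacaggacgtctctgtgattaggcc
C3: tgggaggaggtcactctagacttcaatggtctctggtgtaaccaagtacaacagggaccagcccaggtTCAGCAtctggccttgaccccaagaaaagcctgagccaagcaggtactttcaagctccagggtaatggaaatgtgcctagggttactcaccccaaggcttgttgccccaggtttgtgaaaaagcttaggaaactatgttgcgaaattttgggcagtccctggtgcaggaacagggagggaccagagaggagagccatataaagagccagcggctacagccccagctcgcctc

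PU.1 and the MAF proteins are transcription factors of the macrophage lineage. The PU.1 core was found in the C1qb promoter at position -30 from the start, and in the C1qc promoter at position -193 on the opposite strand. It was also found at 2 places in the Cfp promoter, 7 and 23 bases after the start on the opposite strand. The MAF half-site was found in C1qb at position -131, in C3 at -182 and in C3ar1 at -144. No marked match overlapped another. Each of these motifs was thus in 3 of the 5 windows, and 28.3% of the 32851 promoters listed held the PU.1 core and 19.5% held the MAF half-site. The C/EBP motif TTGCNNAA occurred in the C3 promoter alone among the 5, at position -45, and in 10.8% of all promoters. The GAS motif TTCNNNGAA was in none of the 5 windows and in 8.30% of all promoters. These are matches of letters and say nothing about binding.

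The aged libraries held 8737941 to 16300374 fragments each and the young libraries 4613239 to 9079237. A total of 3 counts stood for 0.188 to 0.349 CPM in aged and 0.305 to 0.642 CPM in young libraries, which is the limit that a count of 0 allows and covers counting error only. The numbers of the samples in the column names ran from 11 to 16 for young and from 17 to 26 for aged mice. What these numbers stand for is not stated, and they cannot be told apart from age. Granule genes of neutrophils were abundant in these libraries in spite of the gate. For example, Ngp ranged from 34224 to 44330 CPM in aged and from 24840 to 35694 CPM in young mice. The monocyte gene Ly6c2 ranged from 605 to 798 CPM in aged and from 366 to 594 CPM in young mice. Csf1r, the receptor for the growth factor of monocytes and macrophages, was found in all the libraries, at 93.0 to 205 CPM in aged and 111 to 150 CPM in young mice. Across the 9742 genes fitted with edgeR (quasi-likelihood test, adjusted by Benjamini and Hochberg's method), 22.4% were called higher and 23.0% lower in aged mice at an adjusted p under 0.05, 45.4% in all. The ages did not overlap for 9.68% of genes with aged above young and for 12.1% with aged below young. Of the 7 complement genes in that fit, 6 were called higher and 1, C3, was called lower, and nothing is read from this count because the same comparison chose them. C1qa, C1qb and C4b were higher in every aged than in every young mouse, no gene of the 8 was lower in every aged mouse, and the ages overlapped for the other 5.

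**Figure D1:**
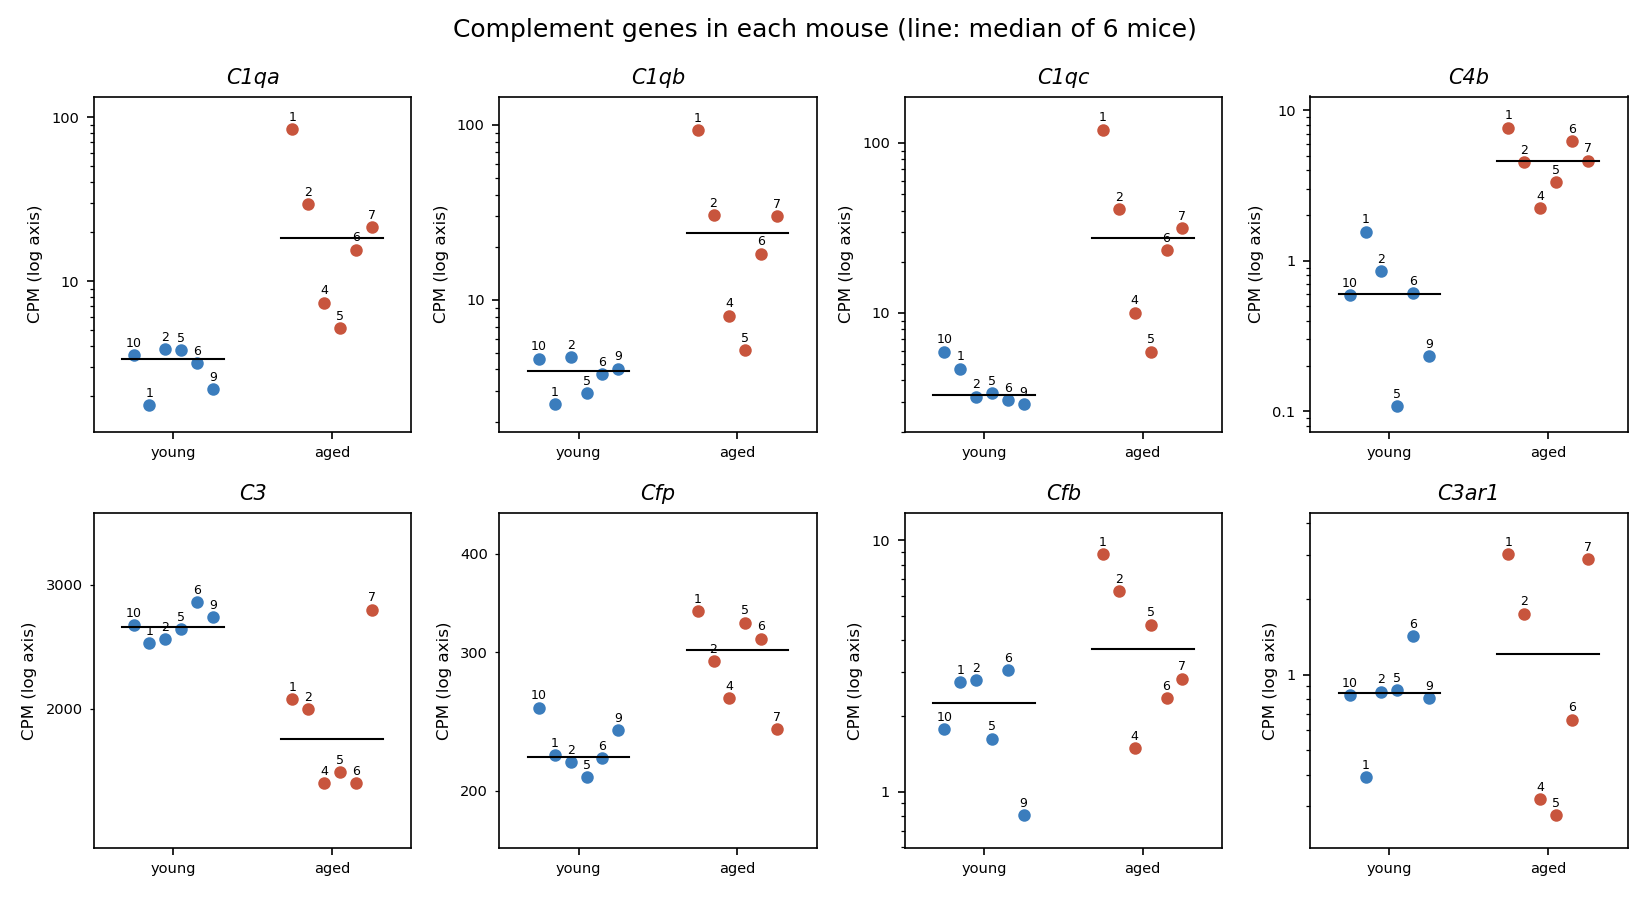
Levels of the 8 complement genes in each mouse, in CPM on log axes that differ between panels, with young mice on the left and aged mice on the right of each panel. Each point is 1 mouse with its number beside it, and the line is the median of 6 mice. The aged mice were spread over 5.17 to 84.6 CPM for C1qa, whereas C3 was at 1570 to 2766 CPM in aged and 2479 to 2835 CPM in young mice.

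The C1q chains had the widest spread of the group among aged mice and, with C4b, the largest differences between the ages. C1qa was lowest at 5.17, at a median of 18.4 and highest at 84.6 CPM in aged mice, and at 1.76, 3.35 and 3.85 CPM in young mice. The lowest aged mouse was above the highest young mouse. The means were 27.2 ± 29.5 CPM (SD, n = 6) in aged and 3.05 ± 0.879 CPM (SD, n = 6) in young mice. The log2 fold change was 3.13 with a standard error of 0.606.

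C1qb had a lowest, median and highest level of 5.17, 24.2 and 93.4 CPM in aged mice and of 2.54, 3.90 and 4.71 CPM in young mice. Again all 6 aged mice were above all the young mice. The log2 fold change was 3.03 with a standard error of 0.593. C1qc had 5.91, 27.4 and 119.9 CPM in aged mice and 2.89, 3.28 and 5.91 CPM in young mice, with a log2 fold change of 3.32 (standard error 0.623). Here the ages met, because aged 5, at 5.906 CPM, was just below young 10, at 5.909 CPM, while the other 5 aged mice were above every young mouse.

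The mouse with the highest level of each chain was aged 1, and without it the log2 fold changes fell to 2.35 for C1qa, 2.30 for C1qb and 2.54 for C1qc. Summed over the chains, C1q was at 298 CPM in aged 1, 101 in aged 2, 82.8 in aged 7, 57.2 in aged 6, 25.5 in aged 4 and 16.2 in aged 5. The aged mice thus covered an 18.3-fold range. The young mice lay between 8.97 and 14.1 CPM, a 1.57-fold range, and every aged mouse was above this range. Fewer cells of a type and less RNA per cell cannot be told apart in such bulk libraries.

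The proportion of the chains to each other was steady while their sum moved. Per kb of exon, C1qa made up 28.0 ± 2.07%, C1qb 32.4 ± 2.09% and C1qc 39.6 ± 1.73% of the C1q level in aged mice (SD, n = 6). In young mice the shares were 28.0 ± 6.60%, 35.4 ± 6.43% and 36.5 ± 9.28% (SD, n = 6), on sums of only 46 to 119 counts per mouse. The shares of the young mice overlapped those of the aged mice for each chain.

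Among the 6 aged mice the chains kept 1 order, aged 1 highest, then aged 2, 7, 6, 4 and 5. Pearson's r of log2 CPM was 0.993 to 0.997 over the 3 pairs of chains, with a Spearman's rho of 1 for each. Without aged 1 and aged 5, the mice farthest from the median, r was 0.976 to 0.997. These relations are part of how the genes were chosen and are given without a p, and the points share library depth within a mouse.

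The levels of the young mice entered the comparison that chose the genes, but the relations among young mice did not. Over the 6 young mice, r between the chains was -0.08 to 0.53 and rho -0.14 to 0.60, and without 2 mice r was 0.01 to 0.56. None of the 21 pairs among the 7 genes passed, with a smallest exact permutation p of 0.119 (two-sided, over pairings of 6 mice) and a Benjamini-Hochberg adjusted p of 0.926 for r in every pair, and 1 for rho. The chains rested on 9 to 50 counts each in young mice. With every library thinned to the smallest, the lowest r between chains in aged mice was 0.981. Whether the relation differs between the ages was not tested.

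**Figure D2:**
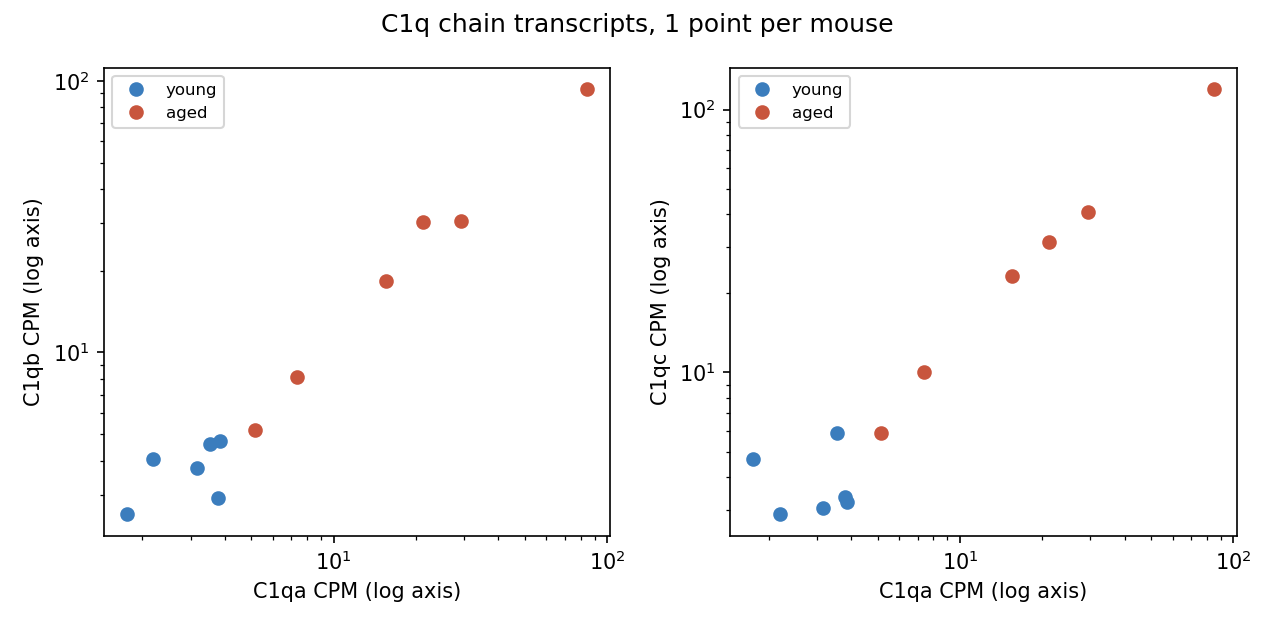
C1qb (left) and C1qc (right) against C1qa, in CPM on log axes, with 1 point per mouse and colours for the ages. The aged mice form a line from 5.17 to 84.6 CPM of C1qa, and the young mice sit as a cloud at its lower end, between 1.76 and 3.85 CPM of C1qa.

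C4b, which encodes the C4 protein cleaved by the classical and lectin pathways, was low in level but did not overlap between the ages. Its lowest, median and highest levels were 2.24, 4.58 and 7.68 CPM in aged mice, from 21 to 74 counts, and 0.108, 0.601 and 1.56 CPM in young mice, from 1 to 8 counts. All 6 aged mice were above every young mouse. The log2 fold change was 3.002 with a standard error of 0.427, and it lay between 2.74 and 3.38 when each mouse was left out in turn. C4b differed from the C1q chains in its spread, which was 3.43-fold from the lowest to the highest aged mouse. C4a, a near-identical copy in the same region of chromosome 17, had at most 10 counts in any mouse, and reads shared by both copies may have been lost to the filter on mapping quality. C4b followed the C1q chains among aged mice less closely than the chains followed each other, with r = 0.81 (rho 0.71) to the mean log2 CPM of the chains over 6 mice. Without aged 1 and aged 5 this r was 0.74. C4b was highest in aged 1 like the chains, but next highest in aged 6, which was below aged 2 and aged 7 for C1q.

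C3 was the most abundant of the 8 genes per length of exon. It was at 376 ± 90.3 CPM per kb of exon (SD, n = 6) in aged and 512 ± 25.4 (SD, n = 6) in young mice. Cfp was next, at 194 ± 25.1 and 149 ± 11.2 (SD, n = 6). C3 was the only gene of the 8 with a lower mean in aged mice. It had a lowest, median and highest level of 1570, 1812 and 2766 CPM in aged mice and of 2479, 2613 and 2835 CPM in young mice. Of the aged mice, 5 were below all the young mice and aged 7 was within the young range. The log2 fold change was -0.44 with a standard error of 0.125, -0.57 without aged 7 and -0.24 after a correction for gene length. The young mice were close together, with a coefficient of variation of 4.96%, against 24.0% in aged mice. The ratio of summed C1q CPM to C3 CPM, not corrected for length, was 0.144 in aged 1, 0.00999 to 0.0503 in the other aged mice and 0.00338 to 0.00535 in young mice.

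Cfp encodes properdin, which stabilises the alternative convertase and is stored by neutrophils and monocytes. Its level was 240 CPM at the lowest, 302 at the median and 338 at the highest in aged mice, and 208, 221 and 255 CPM in young mice. The ages overlapped through aged 7, the lowest aged mouse, while the other 5 were above every young mouse. The log2 fold change was 0.38 with a standard error of 0.0864, the smallest difference among the 7 genes that passed the filter. It was 0.17 after the same correction for gene length, in a comparison in which the log2 fold change over all genes fell with exon length (rho = -0.48 across genes, which are not independent). Of the 10 neutrophil marker genes 7 were called higher and none lower in aged mice, beside 22.4% and 23.0% of all genes tested. Their largest rise was that of Elane (log2 fold change 1.25, edgeR adjusted p = 0.00897). The neutrophil genes summed to 119742 to 142602 CPM in aged and 76376 to 119928 CPM in young mice, and their part in the levels of Cfp and C3 was not tested.

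Cfb encodes factor B, which supplies the protease of the alternative convertase. It was at 1.49, 3.71 and 8.80 CPM in aged mice at the lowest, the median and the highest, and at 0.808, 2.25 and 3.05 CPM in young mice. Only 3 aged mice, numbers 1, 2 and 5, were above the young range. The log2 fold change was 1.06 with a standard error of 0.411, and 0.74 without aged 1. C3ar1, the receptor, was at 0.277, 1.204 and 3.01 CPM in aged mice, from 3 to 46 counts, and at 0.390, 0.842 and 1.42 CPM in young mice, from 2 to 14 counts. Aged 1, 2 and 7 were above all the young mice and aged 4 and 5 were below them all. The ratio of the mean CPM was 1.72, and no fit was made for this gene.

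The remaining genes differed in how they ran with C1q across the 6 aged mice. C3ar1 had r = 0.90 (rho 0.94) to the mean log2 CPM of the chains. Cfb had r = 0.62, C3 0.57 and Cfp 0.17. Without aged 1 and aged 5 these were 0.88 for C3ar1, 0.88 for Cfb, 0.66 for C3 and 0.10 for Cfp, so the value for Cfb moved with those mice.

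**Figure D3:**
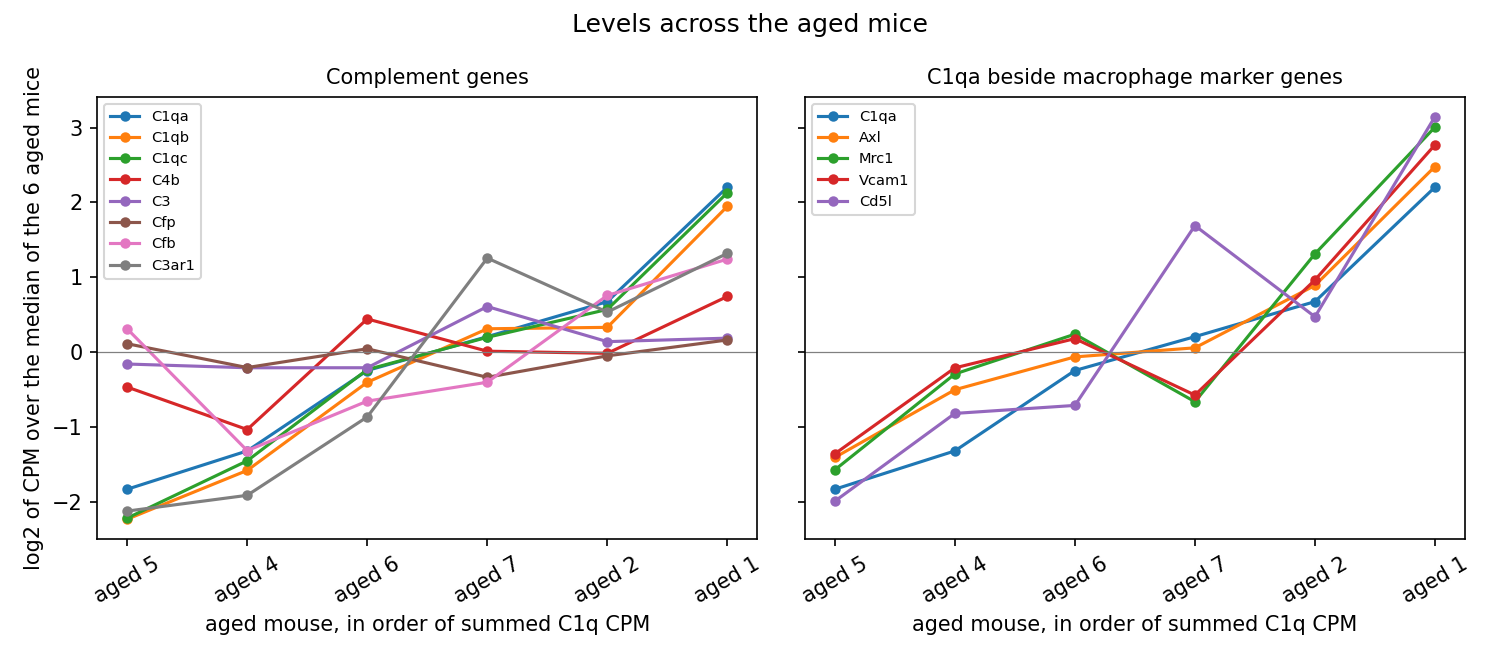
Levels in the 6 aged mice as log2 of CPM over the median of these mice, with mice in order of summed C1q CPM from 16.2 (aged 5) to 298 (aged 1). The left panel shows the 8 complement genes and the right panel C1qa with 4 macrophage marker genes; the chains of C1q rise steadily, Cfp stays near 0, and the marker genes are highest in aged 1.

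Most of the markers of tissue macrophages that were tested moved with the C1q chains. Of 15 such genes, 11 were tested. Of these 10 were called higher and 1, Lyve1, lower (log2 fold change -1.06, adjusted p = 0.00115, edgeR), beside 22.4% and 23.0% of all genes. Their median log2 fold change was 1.996, beside 0.0062 over all genes tested. The largest rise was that of Cd5l, a protein secreted by tissue macrophages (log2 fold change 2.95 with a standard error of 0.768, edgeR adjusted p = 0.00620; 1.96 without aged 1). Without aged 1, 7 of the 11 were called higher, and limma-voom called 4.

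The summed level of the 15 genes was 660 to 1752 CPM in aged and 466 to 644 CPM in young mice, and none of the 15 was at 0 in all mice. Slc40a1, which encodes an iron exporter, made up 34.7 to 78.6% of this sum in aged and 72.8 to 78.3% in young mice. Without it the sum was 1144 CPM in aged 1, 393 in aged 2, 248 in aged 6, 217 in aged 7, 210 in aged 4 and 148 in aged 5, against 123 to 146 CPM in young mice. Axl, a receptor for the uptake of dying cells, was at 14.9 to 221 CPM in aged and 11.9 to 14.5 CPM in young mice and had r = 0.97 to the C1q chains over the aged mice. Cd5l had r = 0.93, Mertk 0.90, Mrc1 0.89, Vcam1 0.89, Emr1 0.89, Cd163 0.86 and Siglec1 0.84. The values were lower for the heme oxygenase gene Hmox1 (0.70), for Lyve1 (0.55) and for Slc40a1 (0.14). All these r values include aged 1, which was at 134 CPM of Mrc1 and 301 CPM of Vcam1. Aged 7 was above aged 4 and aged 6 for C1q, Axl and Cd5l but below both for Mrc1 and Vcam1. The part of macrophages in the C1q levels was not tested.

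Stromal genes also reached their highest sum in aged 1, at 108 CPM, with 9.57 to 108 CPM in aged and 7.15 to 17.4 CPM in young mice. Of 10 stromal genes 2 were tested and 1, the chemokine gene Cxcl12, was called higher (log2 fold change 2.35, adjusted p = 0.00309, edgeR). Genes of B and plasma cells summed to 84.2 CPM in aged 1 and to 11.4 to 56.4 CPM in the other aged mice, against 11.1 to 38.4 CPM in young mice, and neither of the 2 tested was called. Of 12 genes of classical monocytes 2 were called higher, with the largest rise for Cd14 (log2 fold change 1.11, adjusted p = 2.49e-04, edgeR), and 1, Itgam, lower. Both shares were below those over all genes tested, 22.4% higher and 23.0% lower. Of 7 tested genes of Ly6C-low monocytes, 1 was called higher, the scavenger receptor gene Cd36 (log2 fold change 4.001, edgeR adjusted p = 0.00531; 2.51 without aged 1, adjusted p = 0.00754), and 4 lower, with the largest fall for Ace (-1.28, adjusted p = 0.0128). Of 2 tested dendritic cell genes, Clec9a was called lower (log2 fold change -2.45, adjusted p = 2.89e-05, edgeR). Cd36 was at 43.5 CPM in aged 1, at 0.751 to 7.68 CPM in the other aged mice and at 0.195 to 1.12 CPM in young mice. The part of these cells in the complement levels was not tested either.

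The rest of the pathway showed no common direction. Of 53 other complement genes in the table, 17 passed the filter, 3 were called higher, 3 lower and 11 were not called, and 15 had no count in any mouse. Their median log2 fold change was 0.05. Those shares, 3 of 17 in each direction, were near or below the 22.4% and 23.0% of all genes. Of the 3 called higher, C5ar1 and Cr1l were also called under all 9 alternatives and with any 1 mouse left out.

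Genes that start the cascade were mostly at or near 0. Of 16 initiation genes 3 were tested. Fcna, which encodes the lectin pathway protein ficolin A of macrophages, was called higher, at 5.39 ± 4.89 CPM in aged and 2.03 ± 1.01 CPM in young mice (SD, n = 6; log2 fold change 1.37 with a standard error of 0.513, edgeR adjusted p = 0.0407). Its call was lost without aged 1 (0.75 on the log2 scale, edgeR adjusted p = 0.135), and also without aged 2 or young 1, 2, 5 or 6 (adjusted p = 0.0512 to 0.0850). It was lost with limma-voom (adjusted p = 0.159), without TMM factors, with the length correction and with the replicate block (edgeR adjusted p = 0.0517 to 0.0928) as well. The replicate block fitted the mouse number, so only mice with the 4 numbers found in both ages informed its comparison of the ages. Calls lost with it thus rest on fewer mice. Fcnb, the ficolin of granulocytes, was abundant and not called, at 190 ± 46.6 CPM in aged and 200.001 ± 19.5 CPM in young mice (SD, n = 6), but it was called lower with the length correction (log2 fold change -0.41, edgeR adjusted p = 0.0411). C1ra, a protease that C1q activates, was not called (log2 fold change -0.50, adjusted p = 0.146, edgeR). C1rb, C1s1, C2, C4a, Masp1, Colec11, Colec12 and Cfd did not pass the filter, and C1s2, Masp2, Mbl1, Mbl2 and Colec10 had no count. Of these, C1s1, a protease of the C1 complex, and C2, which forms the convertase with C4, had at most 5 counts in any mouse.

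Of the 7 genes of the terminal pathway only Hc, which encodes C5, was tested, and it was not called (log2 fold change -0.51, adjusted p = 0.341, edgeR). C6 and C8g had at most 4 counts in any mouse, and C7, C8a, C8b and C9 had none.

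Receptors were the abundant part of the pathway. C5ar1, the main receptor for the C5a fragment, was called higher, at 941 ± 141 CPM in aged and 668 ± 132 CPM in young mice (SD, n = 6; log2 fold change 0.49 with a standard error of 0.134, edgeR adjusted p = 0.00777). Itgam, the alpha chain of complement receptor 3 and the CD11b antigen of the sort, was called lower (log2 fold change -0.22, standard error 0.0769, edgeR adjusted p = 0.0285). This was -0.05 after the length correction (edgeR adjusted p = 0.548), and the call was also lost with upper quartile scaling, without a filter, with the replicate block (adjusted p = 0.0526 to 0.0889) and without aged 1, 2, 4, 5 or 6 or young 6 (adjusted p = 0.0529 to 0.0680). C5ar2, Itgax, Itgb2, Cd93, Calr, Lrp1 and Lair1 were not called, except that Cd93 was called higher with the length correction (log2 fold change 0.53, edgeR adjusted p = 0.00306) and without aged 4 (0.29, adjusted p = 0.0333). Cr2, C1qbp and Vsig4 did not pass the filter. Vsig4, the complement receptor of tissue macrophages, had 200 counts in aged 1, 30 in aged 2, 7 in aged 4, 4 in aged 5, 12 in aged 6 and 12 in aged 7, and none in any young mouse. Against 3 counts in the smallest young library, its mean in aged mice was at least 7.47-fold higher, and at least 2.02-fold higher without aged 1.

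Among the regulators, Cr1l, which encodes the membrane regulator Crry of mouse cells, was called higher, at 91.8 ± 7.54 CPM in aged and 68.3 ± 7.09 CPM in young mice (SD, n = 6; log2 fold change 0.43 with a standard error of 0.0803, edgeR adjusted p = 8.02e-04). After the length correction it was 0.25 (edgeR adjusted p = 0.0114). Cd46 was called lower (log2 fold change -1.10, standard error 0.290, edgeR adjusted p = 0.00658). So was Cd55 (-0.41, standard error 0.150, edgeR adjusted p = 0.0359), which limits complement on the cell surface. The level of Cd46 was low, at 1.37 ± 0.607 CPM in aged and 2.95 ± 0.679 CPM in young mice (SD, n = 6). It rested on at most 25 counts in an aged and 28 in a young mouse. Cd46 was not tested after thinning or with a minimum of 10 counts in every mouse. The call of Cd46 was lost with the replicate block, and that of Cd55 with upper quartile scaling, after thinning and without aged 1, 2, 4 or 6 or young 5 or 6. Serping1, Cd55b, Cd59a, Cd59b, Clu, Vtn, Csmd1 and Susd4 did not pass the filter, and Cfhr2, Cfi, C4bp, Cpn1 and Cpn2 had no count.

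**Figure D4:**
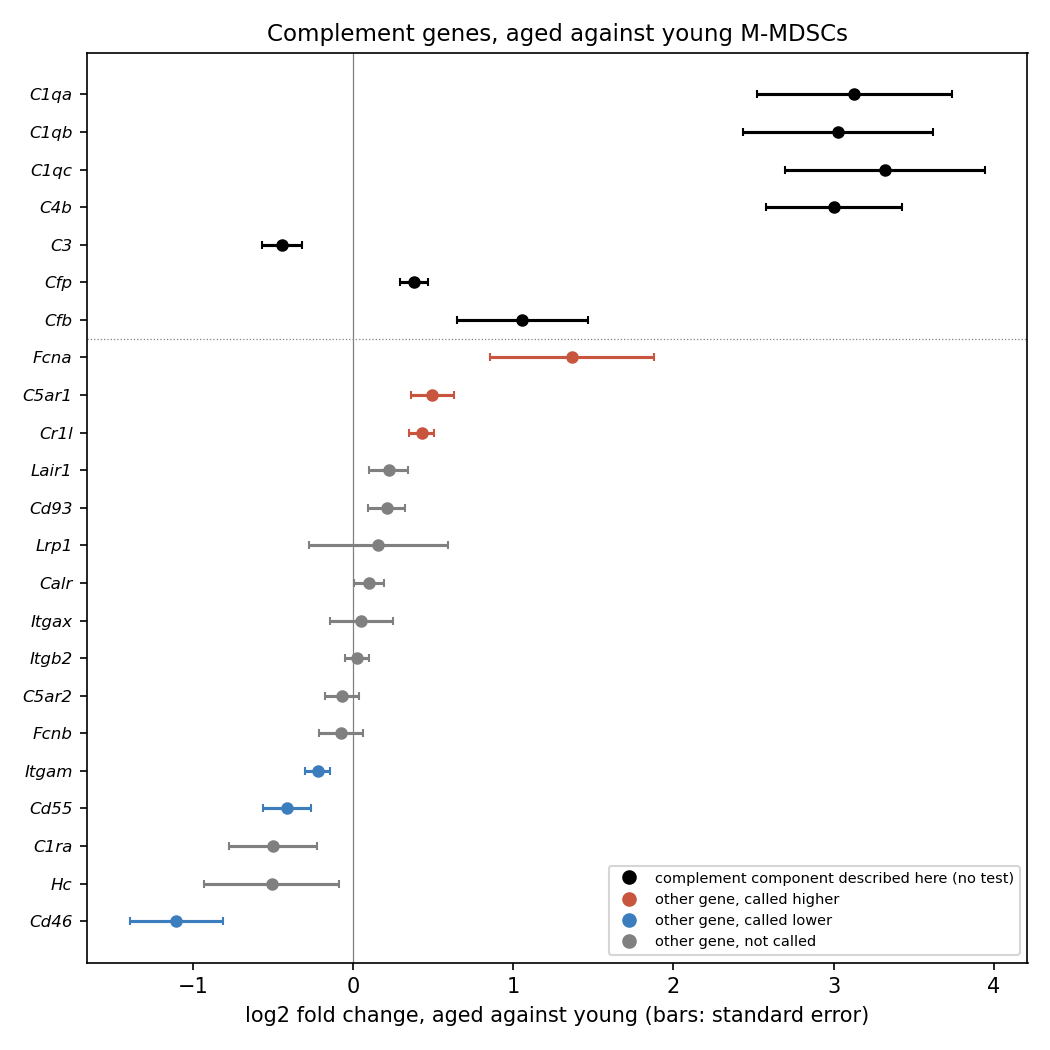
Log2 fold changes of aged against young mice with standard errors, for the 7 complement genes that passed the filter (black, above the dotted line, without a test) and for 16 other complement genes tested with edgeR. The C1q chains and C4b lie between 3.002 and 3.32, C3 at -0.44, and the other genes between -1.10 (Cd46) and 1.37 (Fcna).

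Transcription factors known to act on complement genes did not share a direction. Sfpi1, which encodes PU.1, was called higher with a log2 fold change of 0.28 (edgeR adjusted p = 0.0301), and this was 0.03 after the correction for gene length. Its call was lost with that correction (edgeR adjusted p = 0.806), with the replicate block (0.126) and without aged 4, 5 or 6 or young 5 or 6 (adjusted p = 0.0535 to 0.0702). Nfkb1 (log2 fold change -0.37, adjusted p = 0.00108, edgeR) and Cebpb (-0.43, adjusted p = 0.0124) were called lower, and Irf8, Maf, Irf1, Rela and Cebpa were not called. Across the 6 aged mice, Irf8 had r = 0.95 to the C1q chains and Sfpi1 -0.96. The rank order of Sfpi1 in the aged mice was the reverse of that of C1q (rho -1).

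Among the 9685 genes with a mean of at least 1 CPM in aged mice, 273 had an r above 0.9 to the mean log2 CPM of the C1q chains over the 6 aged mice. The 8 most alike were Tmcc3, Ptgs1, Enpp5, Pkd1, Fcgrt, Dse, Slain1 and Vav2, with r from 0.989 to 0.997. They did not share a direction with age: Fcgrt, the gene of the neonatal Fc receptor, and Dse were called higher (log2 fold changes 1.41 and 1.27, adjusted p = 0.0268 and 0.0240, edgeR), Pkd1 was called lower (-0.62, adjusted p = 6.68e-04) and the other 5 were not called. For C4b 66 genes had an r above 0.9, and the 5 most alike were Ppwd1, Cd93, Ints5, Cluap1 and Gbe1, with r from 0.963 to 0.990. Of these Cluap1 was called lower and the other 4 were not called. Cd93, once described as a receptor for C1q, was in the ranking for C4b and not among the 8 genes for C1q.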

How the data were processed

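RNA of M-MDSCs from 6 aged and 6 young mice was sequenced as stranded, paired-end libraries. The deposited values are raw counts of fragments per gene, which the authors made with featureCounts 2.0.0 on exons of a UCSC mm10 annotation, reverse stranded, keeping pairs with both ends on 1 chromosome at mapping qualities from 60. Which aligner was used is not given in the sources used here. The authors' length over exons came with the counts. No gene row was unnamed.

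The complement genes, gene lists and tests were chosen with earlier results of these data known. Counts were filtered with filterByExpr, scaled by TMM and fitted over 9742 genes with edgeR 4.0.16 (quasi-likelihood test, R 4.3.3), with 1 spread for both ages and Benjamini-Hochberg adjustment at 0.05. DESeq2 1.42.0 and limma 3.58.1 (voom) were alternatives, with other scalings, filters, a length correction and thinning to the smallest library. A block on mouse number (the replicate block) was another, and each mouse was left out in turn. Correlations used log2 CPM (prior count 2), and those in young mice an exact permutation test of pairings. The fit was tested on simulated data. Libraries of 1 age differed by more than sampling noise (chi-square per gene at least 1.68). Named were the complement genes, up to 8 called genes of each complement and factor list, the largest rise and fall of each marker list, and the genes most alike to C1q (8) and C4b (5). Other marker genes were named after their values were seen. Older symbols were matched with RefSeq, for example Sfpi1 (PU.1). Some genes of these lists are counted but not reported here by name.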

Additional observations from a re-analysis of the deposited data

Results flagged for a closer look

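Of the 16 sets of 6 values checked on the CPM scale, 3 had 1 mouse far from the others, where chance gives about 1 in 20. All 3 were of the aged group, namely the levels of C1qa (84.6 CPM), C1qb (93.4 CPM) and C1qc (119.91 CPM) in aged 1. The gap to the next mouse was 0.696, 0.713 and 0.695 of the whole range of the group. On the log2 CPM scale the gaps were 0.383, 0.390 and 0.362 of the range, and none of the 3 passed the same limit. These values also took part in the choice of the genes, and the chains share a mouse and run together, so they are a description of aged 1. In the same mouse the summed macrophage, stromal, dendritic and B and plasma cell genes were at their highest, at 1752, 108, 24.7 and 84.2 CPM. Its total of 8788544 fragments was within the range of the other mice.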

How the results depend on the processing

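Under the 9 alternatives to the settings used, every log2 fold change of the 7 tested complement genes kept its direction, except that C1qa, C4b and Cfb had no value with a minimum of 10 counts in every mouse. That of Cfp was 0.17 with the length correction and 0.55 with the replicate block, against 0.38. Whether equal mouse numbers in both ages mark a pair is not stated. The deviations of the 4 shared numbers correlated at -0.246 to -0.0655, which shows no pairing but cannot exclude it. The other complement genes called higher were 6 with DESeq2, which added Clu, Colec12 and Vsig4, and 5 without a filter, against 3. The length correction added Cd93 to those called higher and Fcnb to those called lower. Those called lower were 1 with upper quartile scaling (Cd46), 1 after thinning (Itgam) and 1 with the replicate block (Cd55), against 3. The r of C1q with C4b in aged mice was 0.94 after thinning, against 0.81. In young mice the lowest r between C1q chains was -0.22 without TMM and -0.52 after thinning, against -0.08, and that of C1q with C4b was -0.16 and 0.021, against -0.04, so the latter turned sign. The cause was not tested.

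When single mice were left out, log2 fold changes ranged from 2.35 to 3.35 for C1qa, 2.30 to 3.25 for C1qb, 2.54 to 3.55 for C1qc, 2.74 to 3.38 for C4b, -0.57 to -0.38 for C3, 0.34 to 0.43 for Cfp and 0.74 to 1.23 for Cfb, and the log2 ratio for C3ar1 from 0.45 to 0.999. Called higher were 2 to 4 and lower 1 to 3 other complement genes. Cd46 was the 1 called lower without aged 1, 2, 4 or 6 or young 6. Over all genes 1864 to 2321 were called higher and 1940 to 2383 lower. In aged mice the lowest r between C1q chains was 0.988 to 0.997, and that of C1q with C4b was 0.67, without aged 1, to 0.90. In young mice they were -0.78, without young 10, to 0.031, without young 2, and -0.25, without young 9, to 0.58, without young 1. Depth limits C4b in young mice and C3ar1 in both ages, which rest on few counts. Nothing in the labels says whether libraries were prepared together. The named marker genes and the count of macrophage genes were fitted again without each mouse after the values of aged 1 were seen.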
